A study of Mus musculus with 2 samples.

Results

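Long intergenic noncoding RNA genes, or lincRNA genes, are transcribed units that lie between protein-coding genes and carry no coding frame. The regions described here are the open chromatin sites at their starts in the mouse thymus. They were taken as the autosomal DNase-seq peaks that lay within 500 bp of a transcript start of a GENCODE gene of type lincRNA and over 1000 bp from every protein-coding start. By this rule 1186 of 129010 autosomal peaks (0.919%) were members in replicate 1 and 734 of 67901 (1.08%) in replicate 2, a mean of 960 ± 320 peaks (SD, n = 2). Where overlapping peaks of a library were joined, they formed 1155 and 720 regions. The rule used position alone and no measured height.

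The samples were whole thymus of female mice aged 10 days of the strain B6CASTF1/J, first-generation hybrids that carry a set of chromosomes from C57BL/6J and a set from CAST/EiJ. Both samples formed 1 group of biological replicates without a control or a treatment, so no test between conditions was possible and each value is given per replicate. The labels number the females separately but give both samples the same donor identifier. The files give no read numbers that were used here, so depth is unknown and the shares carry no counting interval.

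DNase I cuts DNA in nuclei where it is not wrapped tightly in chromatin, and regions cut more often than their surroundings are listed as peaks. Active promoters are open in this way because transcription factors and the transcription machinery displace nucleosomes there. Within a peak, a bound protein can shield a short stretch from the enzyme, which leaves a footprint. Many lincRNA genes are transcribed in few cell types and at low levels, some host small RNAs in their introns or exons, and others, such as Malat1 and Neat1, are transcribed in most cells.

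Peak height is the authors' signal as deposited, divided here by the median height of all autosomal peaks of the same library (0.631 in replicate 1 and 0.834 in replicate 2), so that 1 stands for a peak of median height. As a check of the tissue, 10 of 10 T-lineage genes (Cd3d, Cd3e, Cd3g, Cd4, Cd8a, Cd8b1, Lck, Rag1, Rag2 and Ptcra) had a peak within 500 bp of a start in both replicates. Of 4 genes of thymic epithelium, Ccl25 and Aire had one and Foxn1 and Psmb11 did not. Of 4 genes of other organs, Alb, Myh6 and Ins2 had none and Gfap had one, at 2.19 and 0.701 times the median. Autosomal coding genes as a whole often had such a peak (replicate 1: 64.7%, replicate 2: 59.1%). These counts alone are therefore a weak check of the tissue.

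The sequences below belong to the 5 lincRNA genes with the highest mean height over both libraries whose peak matched no other place in the genome, and are shown because they stand for the most open lincRNA promoters by that mean. Each is the replicate 1 peak, or its middle 300 bp where the peak is longer, as at 1700096K18Rik and Gm33195. It is read 5′ to 3′ on the gene's strand from the RefSeq copy of GRCm38.p6 (mm10), and capitals mark bases that lay in footprints of both libraries. The sequence of Gm12762 is chr7:34234061-34234320 on the minus strand, with the annotated start at position 219 of the sequence, counted from 1 at its 5′ end. That of Tmem250-ps is chr2:26140501-26140700 on the minus strand, with the start at position 180. That of 1700096K18Rik is chr5:25529601-25529900 on the plus strand, wholly upstream of the annotated start. That of Gm33195 is chr13:43864551-43864850 on the plus strand, with the start at position 119. That of Mir142hg, the host gene of the microRNA miR-142 of blood cells, is chr11:87755421-87755660 on the plus strand, with the start at position 157.
Gm12762: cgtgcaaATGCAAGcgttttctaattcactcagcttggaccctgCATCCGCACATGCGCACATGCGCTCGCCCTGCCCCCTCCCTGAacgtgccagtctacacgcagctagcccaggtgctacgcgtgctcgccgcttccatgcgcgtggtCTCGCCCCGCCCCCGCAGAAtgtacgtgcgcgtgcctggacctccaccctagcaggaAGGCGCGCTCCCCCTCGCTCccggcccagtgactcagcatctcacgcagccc
Tmem250-ps: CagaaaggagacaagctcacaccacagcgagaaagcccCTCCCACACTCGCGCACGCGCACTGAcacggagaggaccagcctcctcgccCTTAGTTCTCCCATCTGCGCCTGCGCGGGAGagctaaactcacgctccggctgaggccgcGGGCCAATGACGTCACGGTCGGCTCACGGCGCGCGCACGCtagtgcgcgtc
1700096K18Rik: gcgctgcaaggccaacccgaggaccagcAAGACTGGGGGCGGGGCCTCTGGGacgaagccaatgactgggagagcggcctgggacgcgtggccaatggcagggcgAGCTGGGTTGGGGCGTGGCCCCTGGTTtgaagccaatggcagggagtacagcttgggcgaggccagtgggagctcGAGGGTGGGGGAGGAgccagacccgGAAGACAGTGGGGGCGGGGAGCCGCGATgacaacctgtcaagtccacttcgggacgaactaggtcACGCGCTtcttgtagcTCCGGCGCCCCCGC
Gm33195: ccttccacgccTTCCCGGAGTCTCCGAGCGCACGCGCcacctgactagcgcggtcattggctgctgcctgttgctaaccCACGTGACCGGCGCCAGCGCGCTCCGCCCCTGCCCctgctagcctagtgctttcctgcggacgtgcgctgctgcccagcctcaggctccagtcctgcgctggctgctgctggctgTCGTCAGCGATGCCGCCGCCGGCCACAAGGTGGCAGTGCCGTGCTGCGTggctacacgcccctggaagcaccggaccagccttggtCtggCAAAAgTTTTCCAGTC
Mir142hg: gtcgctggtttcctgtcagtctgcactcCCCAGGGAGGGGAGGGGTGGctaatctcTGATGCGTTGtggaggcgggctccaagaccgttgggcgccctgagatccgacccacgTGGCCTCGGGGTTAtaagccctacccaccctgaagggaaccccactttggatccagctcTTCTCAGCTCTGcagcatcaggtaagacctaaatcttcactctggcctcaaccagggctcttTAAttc

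Shared footprints covered 90 of 260 bases at Gm12762, 98 of 200 at Tmem250-ps, 115 of 300 at 1700096K18Rik, 126 of 300 at Gm33195 and 59 of 240 at Mir142hg. In Tmem250-ps, the stretches in capitals held the NRF1 motif GCGCANGCG at positions 50 to 58 and, on the other strand, at 107 to 115. They also held the NFY motif CCAAT at 153 to 157, and the CRE motif TGACGTCA at 157 to 164, which shares a base with the NFY match. In 1700096K18Rik, the SP/KLF motif GGGCGGG stood at 37 to 43 and 217 to 223 within capitals, while 3 CCAAT matches at 59 to 63, 92 to 96 and 138 to 142 lay outside them. Gm33195 held the NRF1 motif at 28 to 36 in capitals and a CCAAT match outside them, and Gm12762 held the SP/KLF motif on the other strand at 157 to 163 in capitals. None of the 12 motifs searched matched in the Mir142hg sequence.

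The next sequences belong to known noncoding genes and are shown because their promoters were open in both libraries. Malat1, a nuclear RNA of splicing speckles, had its peak at chr19:5802601-5802820 on the minus strand, with annotated starts at positions 149 and 150. Dubr, a noncoding gene whose name refers to Dppa2, had its peak at chr16:50732701-50732900 on the minus strand, with starts at 128, 164 and 173. Snhg12, which hosts small nucleolar RNAs in its introns, had its peak at chr4:132308541-132308740 on the plus strand, with starts at 83, 95, 136, 137 and 138. Capitals again mark bases in footprints of both libraries, 94, 88 and 63 in number.
Malat1: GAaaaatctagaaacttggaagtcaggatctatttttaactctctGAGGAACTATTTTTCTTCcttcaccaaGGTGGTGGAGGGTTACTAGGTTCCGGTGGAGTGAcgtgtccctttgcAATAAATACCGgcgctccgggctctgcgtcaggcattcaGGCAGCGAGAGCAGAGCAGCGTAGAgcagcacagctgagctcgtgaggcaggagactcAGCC
Dubr: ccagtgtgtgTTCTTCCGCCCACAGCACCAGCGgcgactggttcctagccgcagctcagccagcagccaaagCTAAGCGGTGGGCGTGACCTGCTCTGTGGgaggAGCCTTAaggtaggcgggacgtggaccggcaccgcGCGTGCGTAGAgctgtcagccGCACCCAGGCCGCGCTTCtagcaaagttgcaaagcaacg
Snhg12: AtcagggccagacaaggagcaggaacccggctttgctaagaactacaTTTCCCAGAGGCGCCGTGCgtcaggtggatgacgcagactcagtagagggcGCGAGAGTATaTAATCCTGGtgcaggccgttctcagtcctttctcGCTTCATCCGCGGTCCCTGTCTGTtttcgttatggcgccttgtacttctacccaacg

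The first question was how many lincRNA genes had an open start. Of the 5209 autosomal lincRNA genes, 860 (16.5%) had a promoter peak in replicate 1 and 554 (10.6%) in replicate 2, a mean of 13.6% ± 4.15 (SD, n = 2). A peak was present in both replicates at 527 genes (10.1%) and in neither at 4322 (83.0%). Counted over the 4809 lincRNA genes with a start over 1500 bp from protein-coding starts, where any peak within the window could count, the shares were 17.6% and 11.3%. For comparison, 64.7% and 59.1% of the 20807 autosomal protein-coding genes had a peak within 500 bp. Over the 27081 genes of every type other than protein-coding, with a start at the same distance, the shares were 10.0% and 6.25%. These 27081 include the 4809 lincRNA genes. The lincRNA shares thus stood above those of noncoding genes and pseudogenes as a whole and below those of coding genes in either replicate.

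Gene types differed among themselves. Antisense genes counted in the same way stood close to lincRNA genes, at 18.3% in replicate 1 and 12.0% in replicate 2. Genes of type processed transcript stood higher, at 34.0% and 26.1%. Transcripts awaiting experimental support (TEC) stood at 8.79% and 4.69%, and processed pseudogenes, which are copies of messenger RNAs put back into the genome, at 3.64% and 2.11%. The order of these 5 types was the same in both replicates.

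Open chromatin was centred on lincRNA starts. Among 4448 lincRNA genes whose outermost start lay over 6000 bp from coding starts, a peak covered the base 100 bp upstream of the start in 7.96% of genes in replicate 1 and 4.43% in replicate 2. The start itself was covered in 7.71% and 4.79%, and the base 4000 bp upstream in 1.57% and 0.787%. The shoulder into the gene was higher than that upstream in replicate 1, with 3.28% at 1000 bp into the gene and 2.23% at 1000 bp upstream. Protein-coding starts were covered in 42.9% and 40.1%.

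**Figure D1:**
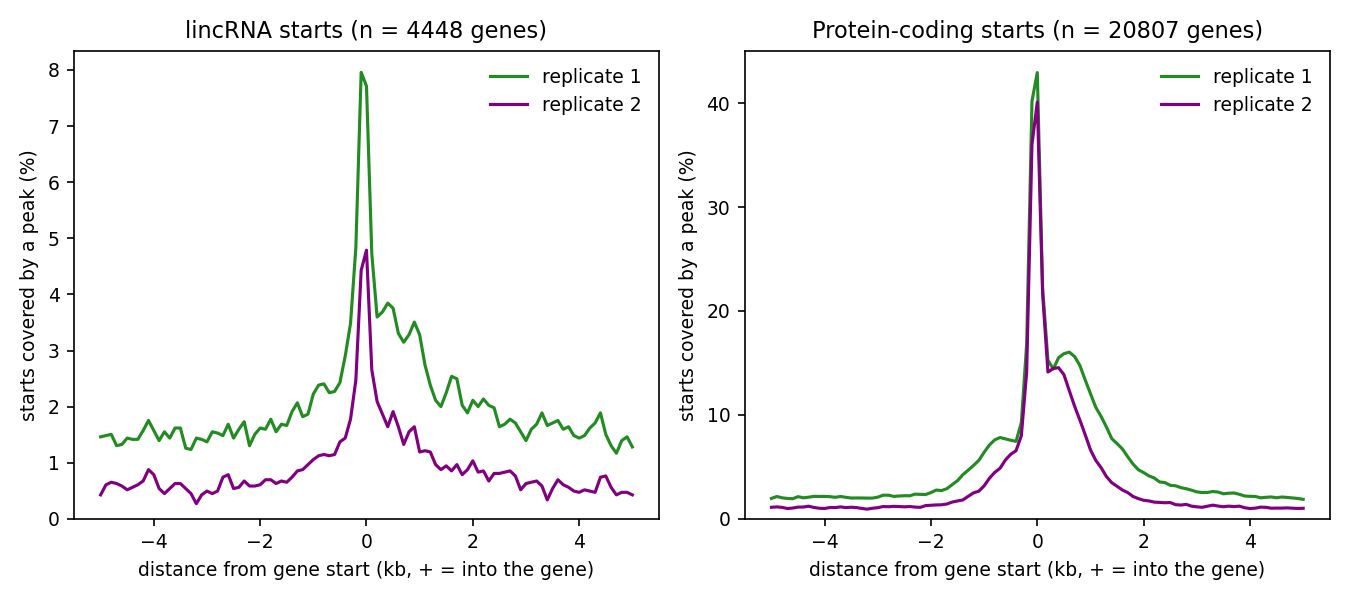
Share of gene starts covered by a DNase-seq peak (%, y axis; the scales of the panels differ) by distance from the outermost start (kb, x axis) for lincRNA genes (left) and protein-coding genes (right), 1 line per replicate. Coverage peaks at the start in both gene types, at up to 7.96% for lincRNA genes in replicate 1 and 42.9% for protein-coding genes.

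Member peaks were spread around the start and not on 1 side alone. The midpoint lay upstream of the nearest start in 56.2% of member peaks in replicate 1 and 54.9% in replicate 2, and the median distance of midpoint to start was 200 and 155 bp. A single peak lay near 2 or more lincRNA genes in 31 and 24 cases. More than 1 member peak was found at 262 and 165 genes, with the most at 1700019J19Rik (6) in replicate 1 and at Lncpint (7) in replicate 2. At the edge of the window, 113 and 74 peaks lay 401 to 500 bp from a lincRNA start and 122 and 59 lay 501 to 600 bp away, with median heights of 0.917 and 0.889 inside and 1.12 and 0.903 outside. The window thus ended where peaks were about as frequent and as high on either side.

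The share with a peak depended on the CpG content of the start. CpG-rich starts, with a GC content of at least 50% and an observed to expected CpG ratio of at least 0.6, are typical of broadly active promoters. Among lincRNA genes they were few, 216 of 4809, and 59.3% of them had a peak in replicate 1 and 53.2% in replicate 2 (mean 56.3% ± 4.26, SD, n = 2). Of the 4593 genes with CpG-poor starts, 15.7% and 9.34% had one (mean 12.5% ± 4.46). The gap was larger than the difference between the replicates. CpG-rich starts gave 128 of the 847 genes with a peak in replicate 1 and 115 of 544 in replicate 2.

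Genes with more annotated transcripts had a peak more often. Genes with 1 transcript had one in 15.4% and 9.55%, those with 2 or more in 25.0% and 17.3%, and the 108 with 5 or more in 37.0% and 25.9%. A peak near any start of a gene counts, so genes with several starts had more windows in which a peak could count. The shares were not adjusted for this, so they cannot tell more windows from more open promoters. The share did not rise with exon number: genes with 1 exon stood at 17.9% and 14.8%, with 2 at 19.05% and 12.3%, and with 3 or more at 16.7% and 10.4%. In replicate 2 it fell at each step, and in replicate 1 it did not. The 137 genes with a name other than a Gm number, a Rik code or a clone code stood at 32.1% and 23.4%, against 15.9% and 9.94% of genes with a Gm number.

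The distance to the nearest coding gene went with the share too. Where the nearest protein-coding start lay under 10 kb away, 147 of 600 lincRNA genes (24.5%) had a promoter peak in replicate 1 and 102 in replicate 2. At 100 kb or more, 193 of 1820 (10.6%) and 110 (6.04%) had one. Where the nearest coding gene itself had a promoter peak in both replicates, 20.7% and 13.6% of lincRNA genes had one, against 12.9% and 8.08% where it had a peak in neither. The differences by distance and by the state of the nearest coding gene had the same direction in both replicates, and none was tested.

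**Figure D2:**
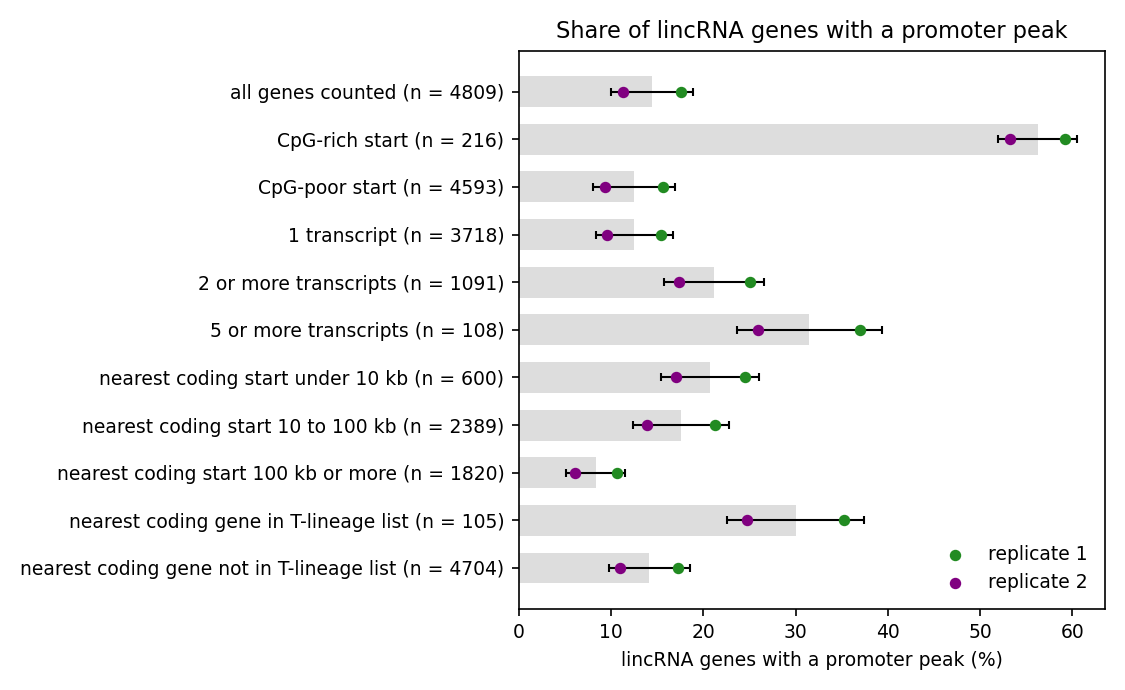
Share of lincRNA genes with a promoter peak (%, x axis) by trait of the gene; bars are the mean of both replicates, error bars the SD (n = 2) and points the replicates. Genes with CpG-rich starts stand highest, at 59.3% and 53.2%, against 15.7% and 9.34% for CpG-poor starts.

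Peaks at lincRNA promoters were modest in height. Their median was 1.30 times the library median in replicate 1 and 1.10 in replicate 2 (mean 1.20 ± 0.143, SD, n = 2), against 2.53 and 2.03 for peaks within 500 bp of protein-coding starts. Other peaks over 1000 bp from coding starts, called distal here, had 0.862 and 0.826. Of the member peaks, 33.1% and 26.4% were among the highest 25% of peaks of their library. In both replicates the lincRNA promoters thus stood between coding promoters and distal peaks.

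Height went with CpG content here as well. CpG-rich windows of 200 bp around the midpoint made up 16.8% of member peaks in replicate 1 and 25.9% in replicate 2, against 57.9% and 67.0% of peaks at coding promoters and 3.46% and 6.67% of distal peaks. CpG-rich member peaks had median heights of 3.50 and 2.21 times the library median, and CpG-poor ones 1.17 and 0.983. At coding promoters the CpG-rich peaks had 4.83 and 3.17 and the CpG-poor ones 1.31 and 1.01. Within the CpG-poor peaks, lincRNA and coding promoters were thus closer in height than within the CpG-rich ones. Repeats filled most of 4.81% and 2.86% of member peaks, against 8.48% and 5.99% of all autosomal peaks.

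The motifs of SP/KLF, ETS and NRF1 factors were likewise at intermediate frequency. Motifs were searched on both strands in the 200 bp around each peak's midpoint, and a match is a description of letters and not of a bound factor. GGGCGGG, read by SP and KLF factors, matched in 11.0% and 15.9% of member peaks, against 29.3% and 34.2% at coding promoters, 3.65% and 6.12% of distal peaks and 8.84% and 15.5% of all autosomal peaks. CCGGAAG of the ETS family matched in 4.47% and 6.68% of member peaks, against 9.85% and 11.2%, 2.07% and 2.98%, and 3.64% and 5.65% in the same order. GCGCANGCG of NRF1 matched in 1.26% and 2.18% of member peaks, against 7.20% and 8.49% at coding promoters and 1.74% and 3.26% of all peaks. In replicate 1 and replicate 2 alike these 3 motifs were rarer at lincRNA promoters than at coding ones.

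The motifs of RUNX, TCF and LEF, E-box and GATA factors had another order, with coding promoters lowest. The ETS family above also holds a lymphoid factor, Ets1, and its motif had the order of SP/KLF. TGTGGT of RUNX factors, which act in T-cell development, matched in 16.1% and 14.7% of member peaks, against 9.88% and 8.46% at coding promoters and 22.0% and 21.3% of distal peaks, with 19.2% and 16.7% over all peaks. CTTTGAA of TCF and LEF factors matched in 5.23% and 4.63% of member peaks, 2.63% and 1.88% at coding promoters and 5.79% and 4.67% of distal peaks, with 5.12% and 3.71% over all peaks. For RUNX the member peaks lay between the other classes, and for TCF and LEF they lay close to distal peaks. The E-box CAGCTG matched in 16.9% and 18.1% of member peaks, 12.7% and 12.8% at coding promoters and 16.6% and 20.8% of distal peaks. AGATAA of GATA factors matched in 7.08% and 3.95%, against 3.75% and 2.57% and 9.37% and 6.79% in the same order. Over all peaks the E-box stood at 15.6% and 17.9% and GATA at 8.17% and 5.32%. CCAAT of NFY, at 19.6% and 21.4%, differed little from all peaks, at 20.8% in both. AAGATGGC of YY1 matched in 11 of 1186 and 11 of 734 member peaks (0.927% and 1.499%), against 2.35% and 2.60% at coding promoters and 1.53% and 1.49% of distal peaks, so that the member peaks stood below distal peaks in replicate 1 and close to them in replicate 2. TGACGTCA of the CRE matched in 1.10% and 1.63%, against 0.646% and 1.02% of all peaks.

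How far both libraries shared these promoters was asked by overlap of at least 1 bp with any peak of the other library. Of the member peaks of replicate 1, 654 (55.1%) were overlapped by a replicate 2 peak, where 43.4% of all autosomal peaks were. Of those of replicate 2, 646 (88.0%) were overlapped by a replicate 1 peak, where 83.4% of all autosomal peaks were. Coding promoters stood at 74.0% and 85.5% and distal peaks at 35.5% and 83.5%. Replicate 1, which has more peaks in all, had the lower share in each of these classes.

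Overlap rose steeply with height. The peaks of each library were put into 4 height classes of equal size, from the lowest to the highest. In replicate 1, the member peaks of these classes were found in replicate 2 at 5.58%, 27.1%, 64.9% and 95.9%. All autosomal peaks had 4.48%, 16.99%, 56.7% and 95.7%. In replicate 2 the shares of member peaks were 64.7%, 87.2%, 95.7% and 99.0%, against 58.3%, 84.2%, 93.7% and 97.8%. At equal height the member peaks were thus at most 10.1 percentage points above all peaks, and in the highest class within 1.13 points of them.

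Footprints were found in most member peaks. In replicate 1, 935 of 1186 (78.8%) held at least 1 footprint of the same library, where 75.0% of all autosomal peaks did. In replicate 2, 640 of 734 (87.2%) did, where 84.1% of all autosomal peaks did. The member peaks held 3327 and 2000 footprints, or 2.81 and 2.72 per peak and 10.6 and 12.4 per kb of peak, with a median of 2 per peak and up to 17 and 12. Over all autosomal peaks the densities were 10.4 and 12.5 per kb, so that members and all peaks differed little by this measure. Coding promoters had 12.8 and 13.6 per kb.

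Footprints went with height as overlap did. From the lowest to the highest class, 41.2%, 74.0%, 86.3% and 98.7% of member peaks held a footprint in replicate 1, and 68.0%, 84.4%, 92.3% and 99.5% in replicate 2. In the middle classes of height, the member peaks stood above coding promoters (59.1% and 71.7% in replicate 1) and below distal peaks (79.6% and 90.7%). A footprint list can follow the sequence preference of DNase I, and whether the deposited list was corrected for it is not given in the sources used here.

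**Figure D3:**
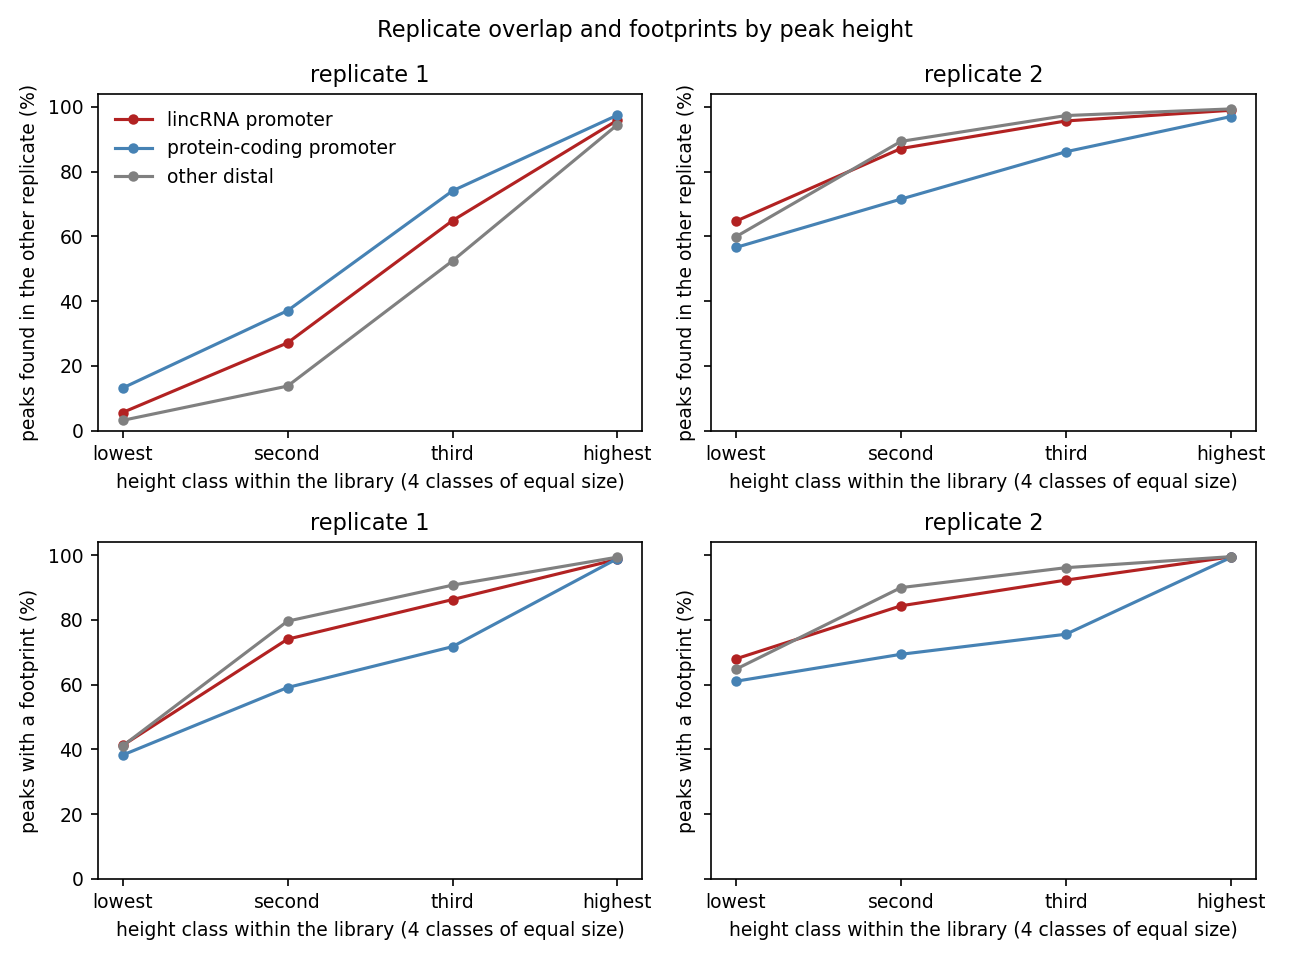
Share of peaks overlapped by a peak of the other replicate (top, %) and with a footprint (bottom, %) by height class within the library (x axis, 4 classes of equal size from lowest to highest), for lincRNA promoters, protein-coding promoters and other distal peaks in each replicate. Shares rise with height in all 3 classes, and lincRNA promoters go from 5.58% to 95.9% overlap in replicate 1.

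At the level of genes, the 527 lincRNA genes with a peak in both replicates had a highest member peak of 3.21 times the library median in replicate 1 and 1.33 in replicate 2 (medians over genes). The highest member peaks overlapped between the libraries at 498 of them. Between the libraries, log2 heights gave r = 0.901 (Pearson) and ranks gave rho = 0.910 (Spearman), which describes genes of the same libraries and not replicates. In replicate 1, 50 of these genes stood above 10 times the median, and in replicate 2, 21 did.

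The highest of all lincRNA peaks lay at Gm42418, a single-exon gene (chromosome 17, 39846958 to 39848788, plus strand), with deposited heights of 57.2 and 39.1, or 90.7 and 46.9 times the median. RefSeq names the place Rn18s-rs5, a pseudogene related to the 18S ribosomal RNA, and the sequence of the peak matched 1 other place in the genome at 90% identity or more over 80% of its length. How reads that match several places were treated is not given in the sources used here, so its height is given as deposited. The other 19 of the 20 highest genes had no such match, and over all member peaks 63 (5.31%) and 37 (5.04%) had one.

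The next 5 genes lay within a narrow range of mean height, from 20.9 to 19.2, so their order is not clear. Gm12762 (chromosome 7, 34230420 to 34234102) stood at 20.2 and 21.6 times the median in replicates 1 and 2 (mean 20.9 ± 0.935, SD, n = 2). Tmem250-ps (chromosome 2, 26136814 to 26140521) stood at 23.6 and 17.3 (20.4 ± 4.51), and RefSeq, unlike GENCODE, lists a coding transcript of this gene within 1000 bp. 1700096K18Rik (chromosome 5, 25530013 to 25531466) stood at 18.5 and 22.1 (20.3 ± 2.59). These 3 are the CpG-rich sequences printed first, with 4 to 6 footprints per peak in either library.

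Gm33195 (chromosome 13, 43864669 to 43868589) stood at 18.6 and 20.1 (19.3 ± 1.11). Its nearest coding gene is Cd83, a surface protein of dendritic cells and thymic epithelium, 79484 bp away. Mir142hg (chromosome 11, 87755577 to 87757270) stood at 20.2 and 18.2 (19.2 ± 1.37), the highest of the lincRNA genes with a CpG-poor start. The lowest value among these 5 genes, 17.3 in 1 library of Tmem250-ps, lay above both values of the 20th gene, Gm5533, at 11.8 and 12.8.

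The remaining genes of the 20 stood between 18.3 and 12.3. D730045B01Rik stood at 18.3 ± 0.637, and its counted peak lay 511 bp into the gene from 1 of its starts, while its outermost start lay 47 bp from that of the coding gene Gm42906. 1700020I14Rik differed most in ratio between the libraries, at 17.2 and 8.00 (12.6 ± 6.53). Among the 20 genes, 17 had a CpG-rich start, where 216 of 4809 of all lincRNA genes did. All 20 had footprinted bases shared by both libraries. In the highest height class, 99.1% of all autosomal peaks in replicate 1 and 99.3% in replicate 2 held a footprint. Footprints at all 20 therefore do not set these genes apart from other high peaks. The peaks of 13 of the 20 genes were higher in replicate 1 and those of 7 in replicate 2, relative to the median. That order depends on each library's median. With equal numbers of peaks from both libraries, each of the 20 was higher in replicate 2, such as Tmem250-ps at 10.7 and 17.3. Gm42418 then stood at 41.0 and 46.9.

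Gm26901, Gm20109 and E230001N04Rik were the 3 of the 20 whose highest peaks did not overlap between the libraries. At Gm26901, a peak at the start (7397821 to 7398040) had 14.2 and 9.92 times the median, and a second, 212 and 252 bp upstream, had 12.3 and 12.9. Both peaks were thus present in both libraries and only their order differed. Gm20109 and E230001N04Rik start near each other on opposite strands and share their peaks, at 13.6 and 7.89 for one and 11.5 and 11.6 for the other.

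**Figure D4:**
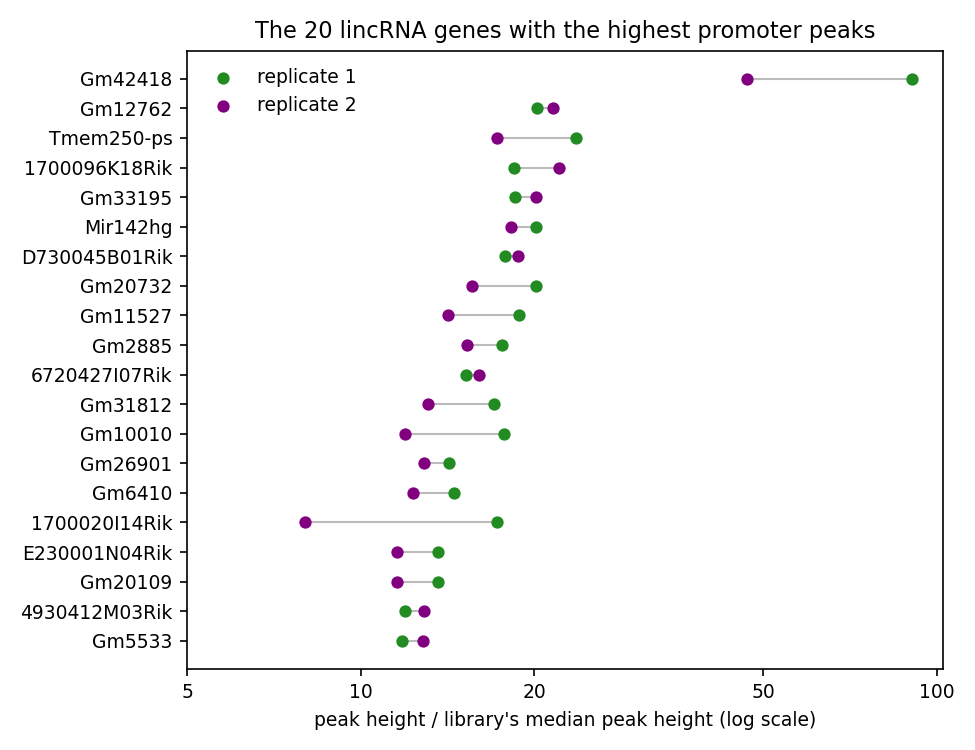
Highest promoter peak of the 20 lincRNA genes with the highest mean (height over the library's median, log x axis), 1 point per replicate joined by a line. Gm42418 stands apart at 90.7 and 46.9, and the others lie between 8.00 and 23.6.

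Known noncoding genes were described by lists. Of broadly expressed noncoding genes, 10 were autosomal lincRNA genes, and 9 had a promoter peak in replicate 1 and 8 in replicate 2. Malat1 stood at 15.9 and 8.75 times the median (12.3 ± 5.03, SD, n = 2), just below the 20 highest, and Neat1, the scaffold of nuclear paraspeckles, at 11.7 and 10.2 (10.9 ± 1.06). The Neat1 peak lay 413 bp upstream of the annotated start by its midpoint and held 7 and 6 footprints, and with a window of 250 bp the mean height was 6.79. Dubr followed at 10.7 and 6.26 (8.49 ± 3.15).

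Lower in the same list were Lockd, a noncoding gene beside Cdkn1b (4.49 and 2.88), Epb41l4aos (4.52 and 2.72), Lncpint, a target of p53 (3.50 and 2.77), and 2900097C17Rik, known as Norad, which binds Pumilio proteins (2.77 and 2.03). With the outermost start alone, Lncpint had a mean of 1.58 against 3.14. Pvt1, the neighbour of Myc, stood near the median, at 1.44 and 0.653. Trp53cor1, also known as lincRNA-p21, had a peak in replicate 1 alone, at 0.697. Miat, described in nervous tissue and heart, had none, and its nearest peak lay over 8 kb away in both replicates, at 8146 and 8166 bp.

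Of 11 genes listed as hosts of small RNAs, 9 had a peak in replicate 1 and 7 in replicate 2. The list also took in Mirt1 (6.42 and 3.76) and Rmrp, which are not named as hosts. Of the hosts of small nucleolar RNAs, Snhg12, Snhg6 and Snhg20 had peaks in both, with Snhg12 at 9.16 and 4.63 (6.89 ± 3.20), Snhg6 at 8.22 and 5.24 (6.73 ± 2.11) and Snhg20 at 5.79 and 3.03 (4.41 ± 1.95). Mir155hg, host of the lymphocyte microRNA miR-155, stood at 2.52 and 1.53. The hosts of neural microRNAs, Mir9-3hg and Mir124a-1hg, had peaks in replicate 1 alone, at 0.477 and 0.330. Snhg18, also a snoRNA host, had no peak within 500 bp of its start, and the nearest lay at 1399 and 1459 bp. Rmrp, the RNA of RNase MRP, had peaks of 18.6 and 14.6 times the median at its start, which the rule left out because the start lies 163 bp from a coding start, that of Ccdc107.

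Mir17hg, which encodes the miR-17 to miR-92 cluster of dividing cells, shows what the window does. By the rule its highest peak had 0.670 in replicate 1 and 3.65 in replicate 2 (2.16 ± 2.11). The replicate 2 peak (115042181 to 115042420) lay 459 bp from the start and counted. The matching replicate 1 peak (115042141 to 115042360) had 4.67 times the median and lay 519 bp away, outside the window. At the start itself the peaks had 0.670 and 0.451.

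Of immune noncoding genes, 9 of 9 had a peak in replicate 1 and 7 in replicate 2, and 6 of the 9 (Mir155hg, Mir142hg, Mir17hg, Malat1, Neat1 and Pvt1) are members of the lists above. Of the rest, Gm14005, also known as Morrbid, stood at 2.08 and 0.896 with peaks that did not overlap. Ifngas1, which lies beside Ifng, and Ptgs2os2 had peaks in replicate 1 alone, at 0.844 and 0.468. Of 9 developmental and neural noncoding genes, Meg3 alone had a peak, in replicate 1, at 0.239 times the median and absent from the other peak file. Hotair and Hottip of the Hox clusters, Pantr1, Rmst, Otx2os1, Bvht, Miat and Paupar had none. Of 3 imprinted genes, H19 (0.642) and Meg3 had a peak in replicate 1 alone and Mirg had none. Against the background of 16.5% and 10.6% over all lincRNA genes, the broadly expressed, host and immune lists stood higher and the developmental list at 1 of 9 and 0 of 9, with no test. Genes with a name other than a Gm number, a Rik code or a clone code stood at 32.1% and 23.4%. The lists share members and were chosen with earlier results of these data known, so their order is a description and no independent support.

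**Figure D5:**
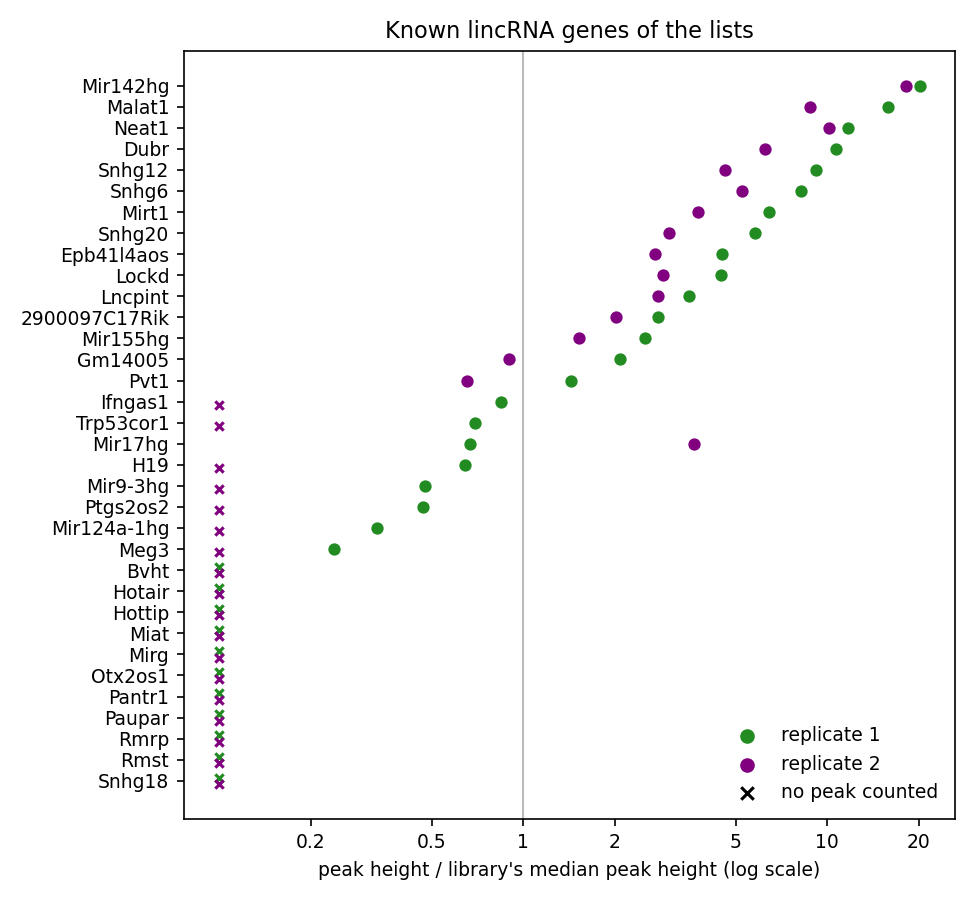
Highest promoter peak of the lincRNA genes of the noncoding lists (height over the library's median, log x axis; the line marks 1), 1 point per replicate; crosses at the left edge mark genes with no peak counted in that replicate. Mir142hg, Malat1, Neat1 and Dubr lie highest, and 11 genes have no peak counted in either replicate.

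The neighbours of T-lineage genes were asked about next. Of the 105 lincRNA genes whose nearest coding start belonged to a gene of a T-lineage list, 35.2% had a promoter peak in replicate 1 and 24.8% in replicate 2 (mean 30.0% ± 7.41, SD, n = 2). Of the other 4704, 17.2% and 11.0% had one. Among CpG-poor starts the shares were 34.7% and 23.8% of 101 genes against 15.2% and 9.02%. The gap had the same direction in both replicates and was not tested.

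The surroundings of these starts were rich in peaks as well. For the 101 T-lineage neighbours whose outermost start lay over 6000 bp from coding starts, 31.7% and 22.8% had a peak within 500 bp of that start. Within 500 bp of the point 4000 bp upstream, 19.8% and 6.93% had one, and of the point 4000 bp downstream, 29.7% and 7.92%. For the other 4347 genes the values were 15.7% and 9.98% at the start, 5.98% and 3.04% upstream and 6.30% and 2.92% downstream. In replicate 1 the share at the start of T-lineage neighbours was close to that downstream of it, while in replicate 2 it was higher. At CpG-rich starts the contrast was larger, with 58.8% and 53.5% at the start and 8.82% and 7.06% upstream.

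Of the 105 neighbours, 25 had a peak in both replicates. The named ones also take in Gm12063, whose start lies 1497 bp from a coding start and which is not among the 105. The highest was Gm28556 (chromosome 1, 138190194 to 138192127), 16419 bp from the start of Ptprc, which encodes the leukocyte phosphatase CD45, at 11.3 and 7.53 times the median (9.42 ± 2.67, SD, n = 2). 2310001H17Rik and Gm47861 start close to each other on opposite strands near Cd69, an activation marker that retains thymocytes, and share a peak of 12.4 and 6.31 (9.38 ± 4.34). With the outermost start alone, 2310001H17Rik stood at 4.23. Gm27162 (chromosome 9, 32904937 to 32928966) lies 232582 bp from Ets1, a factor of lymphoid development, and stood at 10.1 and 7.16 (8.63 ± 2.08), with 15 footprints in replicate 1. All 4 had CpG-poor starts.

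Further neighbours had a gene of thymocyte development or signalling as the nearest coding gene. The word near is used in this sense, at distances from 1497 bp (Gm12063) to 173134 bp (2010110G14Rik). 2010110G14Rik near Lef1, a partner of beta-catenin, stood at 7.95 and 5.17, Gm33619 near Myb, a factor of progenitors, at 7.90 and 2.90, and Gm40608, also near Myb, at 6.48 and 1.60. Gm13982 near Rasgrp1, an activator of Ras downstream of the T-cell receptor, stood at 6.65 and 3.47. Gm44175 near Cd8a stood at 5.97 and 3.68 and Gm44110 near Cd8b1, genes of the CD8 coreceptor, at 3.51 and 2.52. The remaining 5 were Gm26692 near Gfi1, Gm12063 near Bcl11a, AC161258.2 near Satb1, Gm11579 near Cd28 and Gm47680 near Ets1, with mean heights of 4.33, 3.85, 3.80, 3.42 and 3.20 times the median in this order. RefSeq lists a coding start of Bcl11a within 1000 bp of the Gm12063 peak. For all 15 named genes the highest peaks overlapped between the replicates and were higher over the median in replicate 1. Over all 527 lincRNA genes with a peak in both replicates, the highest peaks overlapped at 498, and the median heights were 3.21 and 1.33. With equal numbers of peaks the direction was not the same for all 15. Gm44175 then had a mean of 3.19, below its replicate 2 value of 3.68. Of the 15, 2 had a CpG-rich start.

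Genes seen in 1 library alone had low peaks. In replicate 1 alone there were 333 of 860 genes, with a median height of 0.578 times the library median. In replicate 2 alone there were 27 of 554, with 0.431. Over all autosomal peaks, 43.4% of those of replicate 1 and 83.4% of those of replicate 2 were overlapped by a peak of the other library. The highest of the 333 was 4930428O21Rik (chromosome 5, 107698212 to 107703480), at 4.22 times the median with 3 footprints. Its nearest coding gene is Gfi1, a repressor that acts in T-cell development. The next were Gm5103 (3.47), Gm20139 near Tnfaip3 (3.44), 4931440J10Rik (2.94) and Gm26735 near Sox4 (2.56). Over all 333 genes, the highest member peak was overlapped by a replicate 2 peak at 11, and these include Gm20139 and 4931440J10Rik. At Gm20139 the overlapping replicate 2 peak lay 503 bp from a lincRNA start, and at 4931440J10Rik 712 bp from a coding start, so that neither counted by the rule. In the authors' list of cut-rate FDRs (false discovery rates), replicate 2 had an entry of 0.05 or less within 33 of the 333 peaks, and of 0.001 or less within 4.

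The highest gene of replicate 2 alone was Gm12319 (chromosome 11, 70654741 to 70656493), at 2.14 times the median. Its peak lay 1022 bp from the nearest coding start, just beyond the limit of 1000 bp. In replicate 1 the peaks around it lay 357 and 102 bp from coding starts and did not count, and the lowest FDR of replicate 1 within the replicate 2 peak was 6.55e-51. The other 4 highest, 5730414N17Rik, 2310031A07Rik, Gm48488 and 1700031P21Rik, had peaks below the median, from 0.986 to 0.556. At 2310031A07Rik and Gm48488 a replicate 1 peak overlapped but lay 633 and 502 bp from a lincRNA start, outside the window. Of the 27 genes, 7 held a replicate 1 FDR of 0.001 or less within the peak, and 2 were overlapped by a replicate 1 peak. Genes without a peak were mostly also without a listed cut rate: 102 of 4349 (2.35%) held an FDR under 0.05 in replicate 1 and 53 of 4655 (1.14%) in replicate 2.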

How the data were processed

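DNase-seq peaks, footprints and cut-rate lists of 2 thymus libraries were analysed. Per the README deposited with each sample, the files are on mm10 and were made per library, not pooled. The peak height is the authors' signal as deposited, of unstated scaling. The deposited p-value list holds FDRs of the cut rate under 0.05, and the footprint list carries the constant 0.01. The aligner, callers, versions and thresholds are not given in the sources used here. Of the pair of peak files per library, the larger was used. Starts came from GENCODE M21 and sequence from RefSeq GRCm38.p6, whose 21 chromosome names and lengths fitted the files. Distances run from the nearest base of a peak. Other genome matches were found with minimap2 2.31 (at least 90% identity over 80% of the length). Python 3.11.15 and NumPy 2.4.6 computed the rest, and the counting was tested on planted data. With 1 group there was no test. Named were the 20 highest genes in both replicates, the 5 highest in each replicate alone, members of 5 noncoding lists and up to 15 T-lineage neighbours. Members and lists were chosen with earlier results of these data known. Alternatives are given in the closing section. Reads of CAST/EiJ chromosomes may be placed less often on the reference, which was not tested.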

Additional observations from a re-analysis of the deposited data

How the results depend on the processing

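Alternatives were another peak file, other windows and distances, equal peak numbers, joined peaks, other overlap and footprint rules, the FDR list and, chosen after seeing the data, leaving out RefSeq coding starts and peaks with other genome matches. The number of peaks moved from 960 to 1443 with a window of 1 kb, and the footprint share from 83.0% to 90.1% with equal numbers of peaks; the other values moved by less than the SD of the replicates (counts by less than 1.5 times), which with n = 2 is wide. With equal numbers, the shares of genes were 10.8% and 10.6%, and the overlapped shares 81.3% and 79.4%. Overlap in either direction counts nearly the same pairs of peaks, so equal numbers bring the overlapped shares together by themselves. The order of the footprint shares turned round, to 93.0% in replicate 1 and 87.2% in replicate 2. What set the gaps between the replicates was not tested. At 50% of both peaks the overlap was 42.5% and 67.7%. Without either replicate, the values are those of the other: 734 to 1186 peaks, 10.6% to 16.5% of genes, 55.1% to 88.0% overlap, 78.8% to 87.2% with a footprint and a height of 1.10 to 1.30. Of the 50 named genes with peaks in both, 31 moved by more than their SD in the other peak file, whose median is higher, such as Gm12762 from 20.9 to 13.5 and Mir142hg from 19.2 to 12.3. Gm11527 fell from 16.5 to 2.84 without peaks near starts of other gene types, and Neat1 from 10.9 to 6.79 with a window of 250 bp. With the outermost start alone, 2310001H17Rik fell from 9.38 to 4.23 and Lncpint from 3.14 to 1.58. Between 16 and 20 of the 20 highest genes kept their place. Tmem250-ps left with RefSeq starts and Gm42418 with other matches. No paired analysis was possible because there is 1 group only.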
